A study of Mus musculus with 6 samples.

Results

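The genes described here are 10 members of the hypoxia-inducible factor (HIF) pathway, measured by RNA sequencing in mouse colonic epithelial cells. They are the HIF alpha subunit genes Hif1a, Epas1 and Hif3a, the prolyl hydroxylase genes Egln1, Egln2 and Egln3, the ubiquitin ligase gene Vhl, and the hypoxia targets Bnip3, Ak4 and Pfkfb3. They were taken by symbol from the 23725 genes of the deposited table, and all 10 passed the filter on low values, in every library. The knockout group was 3 samples of C57BL/6J background labelled B6-Cg-Nr3c1-Vil-Cre/ERT2 (Nr3c1IEC-/-), in which the gene of the glucocorticoid receptor is deleted by a tamoxifen-inducible Cre under the villin promoter, which is active in intestinal epithelium. The control group was 3 samples of the same background labelled wild type. Animals of both groups received tamoxifen into the peritoneum for 5 days in a row, and the epithelial cells were enriched on Percoll, without culture, at day 7 counted from the first dose. Whether Cre was also present in the control animals is not stated, and effects of active Cre and of receptor loss cannot be told apart. The genes were chosen with earlier results of this comparison known, so their differences between the groups are a description, without p-values. Calls of these 10 genes below, with all libraries or with some left out, are part of that description and not a test of it.

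HIF is a transcription factor made of an oxygen-sensitive alpha subunit and the constant partner Arnt. In oxygenated cells the prolyl hydroxylases, encoded by the Egln genes, mark the alpha subunit, the Vhl protein binds the mark, and the subunit is degraded. When oxygen is short the alpha subunit accumulates and switches on genes for glycolysis, mitophagy and angiogenesis, and also Egln3 and Egln1 themselves as feedback. The colonic surface is a low-oxygen tissue, where HIF-1 and HIF-2 are known to act on barrier, iron and energy genes. The control of HIF alpha by oxygen acts on the protein, which RNA sequencing does not measure.

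Recovered reads numbered 10089313 to 12030844 per library. Nr3c1 stood at 145, 123 and 175 normalized reads (gene counts divided by the authors' library size factor) in the knockout libraries, against 1119.8, 967 and 197 in the libraries labelled wild type. At Nr3c1, the library labelled wild type replicate 3 thus resembled the knockout libraries, against its label, and each direction below rests partly on it. Nr3c1 fell by 2.03 on the log2 scale (SE 0.60, limma adjusted p = 0.0372), and leaving out any library other than wild type replicate 3 ended that call (limma adjusted p = 0.0631 to 0.125). Epithelial markers were abundant in both groups, with summed levels of the 11 genes of 304147 to 376730 in knockout and 409876 to 424538 in wild-type libraries. Of these 11 genes 2 rose, Krt20 and Vil1, and 3 fell, Cdx1, Cdx2 and Car1, the last with 39006 ± 24048 in knockout and 143867 ± 31220 in wild type. The fall of Car1 is part of the lower knockout sums, and Epcam, Cdh1, Krt8, Krt18, Krt19 and Cldn7 were not called. Beside these marker counts and those that follow, 15.0% of all tested genes were called higher and 15.4% lower in the knockout. Of 13 myeloid markers 10 rose and 0 fell, and their summed level was 7501, 3184 and 2750.4 normalized reads in knockout libraries, against 497, 830.2 and 1065 in wild-type libraries. Of the 13, Fcgr3, Retnlg and Fcer1g entered the test through the knockout libraries, since fewer than 3 wild-type libraries reached the filter value of 10. Stromal markers summed to 2709.8, 909.5 and 1357 in knockout and to 679, 996 and 1226 in wild-type libraries, where 1 of 8 tested rose. Knockout replicate 1 held the highest sum of both marker lists. Of 11 lymphocyte markers only 2 could be tested and 1 of these rose, with sums of 169 to 418 in knockout and 60.6 to 164 in wild-type libraries.

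Of the 10 genes 6 were called higher in the knockout libraries, 0 were called lower and 4 were not called, in a limma fit over all 12837 tested genes with a Benjamini-Hochberg threshold of 0.05. Over all tested genes 30.5% were called, with 15.0% of all tested genes higher and 15.4% lower in the knockout, and the choice of the 10 genes with this comparison known means that nothing is read from their count. The called genes were Hif1a, Egln1, Egln3, Bnip3, Ak4 and Pfkfb3. The median log2 change of the 10 genes was 1.25, beside 0.01 over all tested genes. The count over all genes, 3910 with every library, was 1923 with wild type replicate 1 left out and 1960 with replicate 2 of that group left out, and 5 of the 10 genes were called in both cases. The values of 6 genes lay higher in all knockout libraries than in any wild-type library, and those of 1, Epas1, lay lower in all. Over all tested genes the groups did not overlap for 50.7%, with 25.2% higher and 25.5% lower in all knockout libraries.

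**Figure D1:**
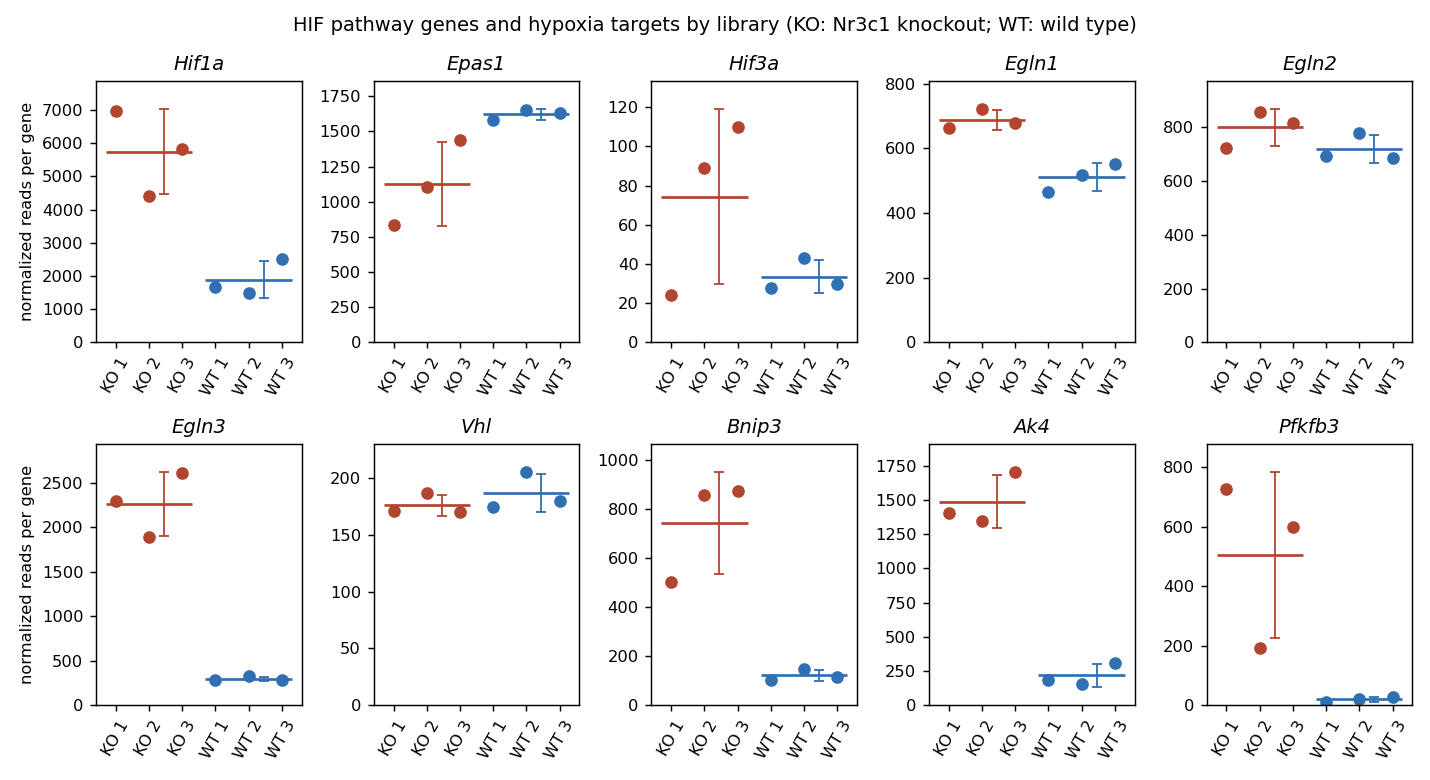
Normalized reads (y axis, from 0) of the 10 genes in each library (x axis; KO, Nr3c1 knockout replicates 1 to 3 in red, WT, wild type replicates 1 to 3 in blue), with the group mean as a line and its SD as a bar. Hif1a, Egln1, Egln3, Bnip3, Ak4 and Pfkfb3 lie higher in all 3 knockout libraries than in any wild-type library, Epas1 lies lower in all 3, and Hif3a, Egln2 and Vhl overlap.

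Among the HIF alpha genes Hif1a rose and Epas1 and Hif3a were not called. Hif1a (Entrez 15251, GRCm38 chromosome 12, 73901375 to 73947530, plus strand) encodes HIF-1 alpha, the subunit that drives glycolytic genes. It had 6982, 4419 and 5839 normalized reads in the knockout libraries and 1665, 1490.2 and 2516 in the wild-type libraries. Every knockout library lay above every wild-type library, and wild type replicate 3 was the highest of its group. Hif1a averaged 5747 ± 1284 in knockout and 1891 ± 549 in wild type (SD, n = 3 each), a log2 change of 1.62 (SE 0.23). In non-stranded libraries 5.6% of its exon bases are shared with the antisense gene Gm15283, whose reads cannot be told apart there. The protein-coding gene Gm49321, on the same strand, shares 2.5% of the Hif1a exon bases. Hif1a is also abundant in myeloid cells, whose markers rose in the same libraries. With the mean level of 47 non-epithelial markers as a covariate, which correlated with genotype at 0.863, the log2 change of Hif1a was 0.71 and was not called, so marker level and genotype cannot be told apart here.

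Epas1 (Entrez 13819, chromosome 17, 86753700 to 86833410, plus strand) encodes HIF-2 alpha, the subunit tied to intestinal iron uptake. It had 838, 1104 and 1438 normalized reads in the knockout libraries, against 1580.4, 1655 and 1628 in the wild-type libraries. The wild-type libraries lay close together, and each knockout library was lower by its own amount, most in replicate 1. The means were 1126 ± 301 in knockout and 1621 ± 37.6 in wild type, a log2 change of -0.56 (SE 0.18) that was not called with all libraries. It was called without knockout replicate 3, where the change was -0.75. Epas1 is best known from endothelium. The 11 endothelial markers together held 64, 40.4 and 66.8 normalized reads in knockout libraries and 65.8, 62.6 and 65.6 in wild-type libraries, 0 of 3 tested were called, Cldn5 was at 0 throughout, and Cdh5, Tek and Emcn were at 0 in all wild-type libraries. Pecam1, an endothelial adhesion gene, lay lower in all knockout libraries as Epas1 did, with 7.34, 8.28 and 15.3 normalized reads in knockout and 22.3, 27.4 and 18.2 in wild-type libraries (log2 change -1.11, limma adjusted p = 0.055, not called). Egfl7, also tested, lay higher in all knockout libraries, with 16.8, 11.4 and 11.5 normalized reads in knockout and 9.55, 5.87 and 9.11 in wild-type libraries. Its log2 change was 0.63 and was not called, and the values of Vwf, the other marker tested, overlapped between the groups. Egfl7 reached the filter value of 10 only in knockout libraries. Pecam1 reached it in all wild-type libraries but, in the knockout group, only in replicate 3. Each thus entered the test through the group where it was higher, and nothing is read from their directions. The part of endothelial RNA in the Epas1 difference was not tested.

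Hif3a (Entrez 53417, chromosome 7, 17031507 to 17062427, minus strand), whose products include inhibitors of HIF, was by far the lowest of the family. Its values were 24.1, 89.0 and 109.8 normalized reads in the knockout libraries and 27.6, 43.0 and 30.1 in the wild-type libraries. Knockout replicate 1 lay below all wild-type libraries while the other two knockout libraries lay above them. The log2 change of 0.89 (SE 0.53) was not called, but was 1.56 and called without knockout replicate 1. Fewer cells of a type and less RNA per cell cannot be told apart in these bulk samples, here or for the other genes.

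Set against transcript length, the balance between the subunits differed between the groups. Per kilobase of annotated exon, Hif1a exceeded Epas1 by 7.90, 3.80 and 3.85 times in the knockout libraries, against ratios of 0.999, 0.854 and 1.47 in the wild-type libraries. This ratio is taken within a library and does not depend on how libraries were scaled. Hif1a made up 81.6% ± 5.96 of the alpha subunit RNA per kilobase in knockout and 51.4% ± 6.94 in wild type, Epas1 17.4% ± 5.35 and 47.8% ± 6.71, and Hif3a 0.981% ± 0.619 and 0.832% ± 0.284 (SD, n = 3 each).

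Among the oxygen sensors Egln3 stood out. Egln3 (Entrez 112407, chromosome 12, 54178981 to 54203860, minus strand) encodes PHD3, a hydroxylase whose own gene is induced by HIF. It had 2291, 1892 and 2609 normalized reads in the knockout libraries and 283, 323 and 288 in the wild-type libraries. The lowest knockout library was several times above the highest wild-type library, and wild type replicate 3 lay between the other two of its group. The means were 2264 ± 359 in knockout and 298 ± 21.5 in wild type, 7.60 times higher in knockout, with a log2 change of 2.91 (SE 0.14).

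Egln1 (Entrez 112405, chromosome 8, 124908587 to 124949324, minus strand), encoding PHD2, the main hydroxylase for HIF-1 alpha in most cells, had 661, 721 and 679 normalized reads in knockout libraries and 464, 516 and 551 in wild-type libraries. All knockout libraries were higher, by a much smaller step than for Egln3. The log2 change was 0.43 (SE 0.11), and it was not called at 0.40 with knockout replicate 2 left out, at 0.36 with wild type replicate 1 left out, or at 0.44 with the second wild-type library left out, nor at 0.40 with the marker covariate. Egln2 (Entrez 112406, chromosome 7, 27158658 to 27166802, minus strand), encoding PHD1, had 724, 858 and 815 in knockout libraries and 693, 779 and 687 in wild-type libraries. These ranges overlapped and the log2 change of 0.15 (SE 0.11) was not called. Vhl (Entrez 22346, chromosome 6, 113623959 to 113631633, plus strand), the recognition subunit of the ligase that removes hydroxylated HIF alpha, had 171, 186 and 169.9 in knockout libraries and 174, 205 and 179 in wild-type libraries. Its ranges overlapped too, with a log2 change of -0.08 (SE 0.13). Per kilobase of exon, Egln3 took 66.0%, 58.4% and 67.1% of the RNA of the 3 hydroxylase genes in knockout libraries, against 22.0%, 22.3% and 21.3% in wild-type libraries. Egln2 held the largest share in all wild-type libraries, with 50.3% ± 1.64, and 21.6% ± 3.04 in knockout libraries.

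**Figure D2:**
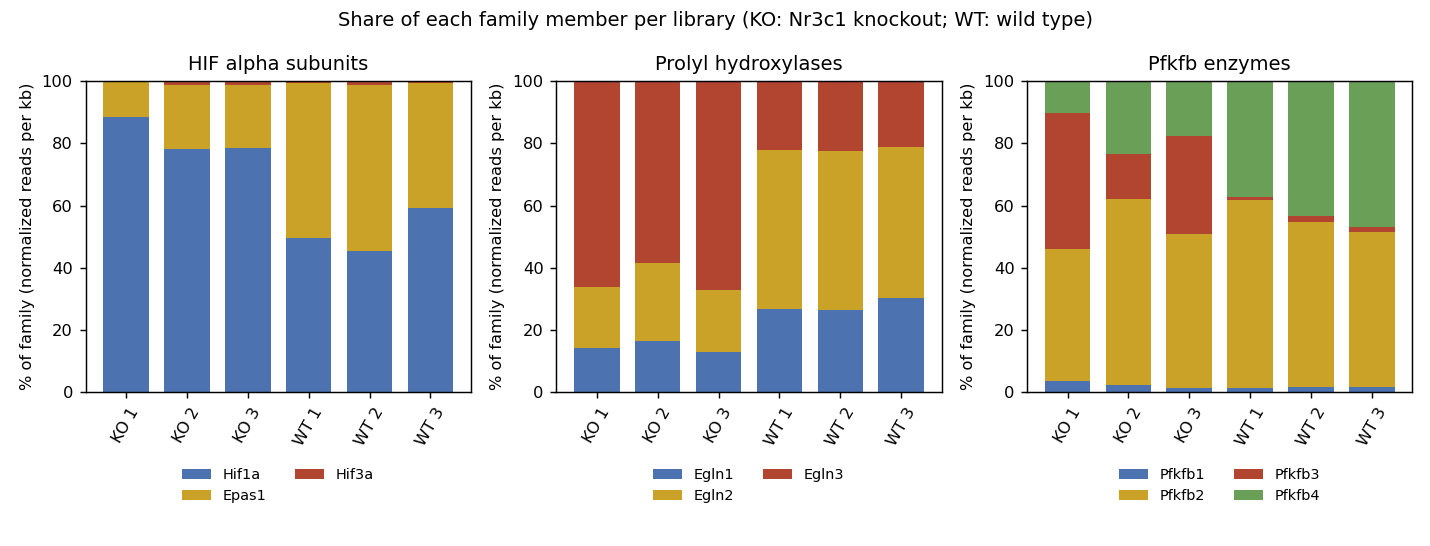
Stacked bars give each gene's percent of its family's normalized reads per kilobase of exon (y axis) in each library (x axis; KO, Nr3c1 knockout; WT, wild type), for the HIF alpha, Egln and Pfkfb genes. Hif1a takes 78.1% to 88.5% of the alpha RNA in knockout libraries and 45.5% to 59.1% in wild-type libraries, Egln3 58.4% to 67.1% and 21.3% to 22.3% of the Egln RNA, and Pfkfb3 14.6% to 43.4% and 0.915% to 1.90% of the Pfkfb RNA.

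The 3 hypoxia targets were higher in every knockout library than in any wild-type library. Bnip3 (Entrez 12176, chromosome 7, 138890836 to 138909519, minus strand) encodes a receptor on the outer mitochondrial membrane that brings mitochondria to autophagy. It had 502, 855 and 872 normalized reads in knockout libraries and 104, 147 and 113 in wild-type libraries, a log2 change of 2.58 (SE 0.24). Knockout replicate 1 was the lowest of its group. The antisense gene Gm45507 shares 22.3% of the Bnip3 exon bases, and its reads cannot be told apart there.

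Ak4 (Entrez 11639, chromosome 4, 101419277 to 101466995, plus strand) encodes an adenylate kinase of the mitochondrial matrix, an enzyme family that interconverts adenine nucleotides. It had 1407, 1344 and 1705 normalized reads in knockout libraries and 184, 157 and 311 in wild-type libraries. The groups were far apart, although wild type replicate 3 lay above the other two of its group. The means were 1485 ± 193 in knockout and 217 ± 81.9 in wild type, with a log2 change of 2.82 (SE 0.24). With the marker covariate it was 2.28 and was not called.

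Pfkfb3 (Entrez 170768, chromosome 2, 11471433 to 11554077, minus strand) encodes the enzyme that makes fructose 2,6-bisphosphate, an activator of phosphofructokinase and so of glycolysis. It showed the largest log2 change of the 10 genes and a wide spread within the knockout group. Its values were 725, 192 and 599 normalized reads in knockout libraries and 10.6, 19.6 and 28.2 in wild-type libraries, the last from 10, 20 and 31 reads. Even the lowest knockout library, replicate 2, lay far above wild type, and the log2 change was 4.52 (SE 0.53). Per kilobase, Pfkfb3 held 43.4%, 14.6% and 31.2% of the RNA of the 4 Pfkfb genes in knockout libraries, against 0.915%, 1.72% and 1.90% in wild-type libraries. Pfkfb3 is known to be induced in activated myeloid cells as well as in hypoxic cells. The myeloid marker sum was highest in knockout replicate 1, as Pfkfb3 was, and lowest of the knockout group in replicate 3. Single markers differed in this order. S100a8, S100a9, Fcer1g and Retnlg were lowest of the knockout group in replicate 3, and the other myeloid markers in replicate 2, as Pfkfb3 was. The part of myeloid RNA in the Pfkfb3 difference was not tested. With the marker covariate the log2 change of Pfkfb3 was 2.19 and was not called.

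The promoter sequences of Egln3, Bnip3, Ak4 and Pfkfb3 are shown because these genes had the largest differences of the 10. Each is the RefSeq window on GRCm38.p6 from 250 bases before to 50 bases after the annotated start, 5′ to 3′ on the gene's strand, and 9 of the 10 genes matched an entry. Capitals mark the core letters of the hypoxia response element, ACGTG or GCGTG, on either strand (CACGT or CACGC where it lies on the opposite strand). CACGTG holds one on each strand, overlapping.
Egln3, minus strand, chr12:54203825-54204124: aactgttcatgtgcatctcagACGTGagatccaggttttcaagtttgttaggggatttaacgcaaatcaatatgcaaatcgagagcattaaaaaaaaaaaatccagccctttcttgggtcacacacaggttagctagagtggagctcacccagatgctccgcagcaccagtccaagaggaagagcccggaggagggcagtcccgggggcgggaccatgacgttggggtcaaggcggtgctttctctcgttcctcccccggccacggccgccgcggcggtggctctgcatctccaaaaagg
Bnip3, minus strand, chr7:138909457-138909756: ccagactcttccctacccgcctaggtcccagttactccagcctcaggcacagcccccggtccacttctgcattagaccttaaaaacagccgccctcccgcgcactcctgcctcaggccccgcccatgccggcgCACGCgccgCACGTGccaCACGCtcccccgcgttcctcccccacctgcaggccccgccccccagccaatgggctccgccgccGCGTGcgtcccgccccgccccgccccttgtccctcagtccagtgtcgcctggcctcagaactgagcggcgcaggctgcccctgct
Ak4, plus strand, chr4:101419039-101419338: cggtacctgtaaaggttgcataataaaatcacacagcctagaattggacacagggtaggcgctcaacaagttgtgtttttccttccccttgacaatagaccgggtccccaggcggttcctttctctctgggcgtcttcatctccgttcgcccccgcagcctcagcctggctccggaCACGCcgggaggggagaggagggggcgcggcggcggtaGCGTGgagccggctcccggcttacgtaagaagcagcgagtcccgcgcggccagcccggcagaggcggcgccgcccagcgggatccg
Pfkfb3 first start, minus strand, chr2:11553880-11554179: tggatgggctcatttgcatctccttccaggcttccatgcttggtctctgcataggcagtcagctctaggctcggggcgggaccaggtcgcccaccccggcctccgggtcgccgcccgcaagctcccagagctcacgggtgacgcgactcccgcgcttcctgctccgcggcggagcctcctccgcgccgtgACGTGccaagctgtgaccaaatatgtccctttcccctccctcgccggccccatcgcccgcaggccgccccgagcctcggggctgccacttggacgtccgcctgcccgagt
Pfkfb3 second start, minus strand, chr2:11502041-11502340: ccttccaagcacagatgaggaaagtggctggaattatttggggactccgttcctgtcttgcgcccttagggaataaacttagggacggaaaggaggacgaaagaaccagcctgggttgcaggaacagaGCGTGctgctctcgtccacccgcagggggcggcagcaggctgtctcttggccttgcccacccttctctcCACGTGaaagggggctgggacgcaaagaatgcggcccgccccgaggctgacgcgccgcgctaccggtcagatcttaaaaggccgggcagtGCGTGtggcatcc

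The Bnip3 window held 5 such matches, of which 4 began 117, 108, 107 and 99 bases before the start and the other at 35 bases. The pair at 108 and 107 overlaps. The Egln3 window held a single match, 229 bases before the start. Ak4 has 4 annotated starts, of which the first is printed. Its windows held 2 matches at each of the first 3 starts, which overlap, and 3 at the fourth, where CACGTG gives an overlapping pair beginning 214 and 213 bases before the start. Pfkfb3 held 1 and 4 at its first and second starts. Of the 14 windows of the 9 genes, Vhl's was the only one with no match. The letters are common. They occur in 43.8% of the 32851 windows of the table, and in at least 1 window of 46.7% of its 27025 genes. The median GC content of all windows was 52.7%, beside 49.3% to 86.0% for the windows described here. The full glucocorticoid receptor palindrome was in none of the 14 windows and in 3 of all windows, and its shorter unit TGTTCT, on either strand, was in none of the 14 and in 19.0% of all windows. A match is not a binding site, and a window without one says nothing about elements elsewhere.

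**Figure D3:**
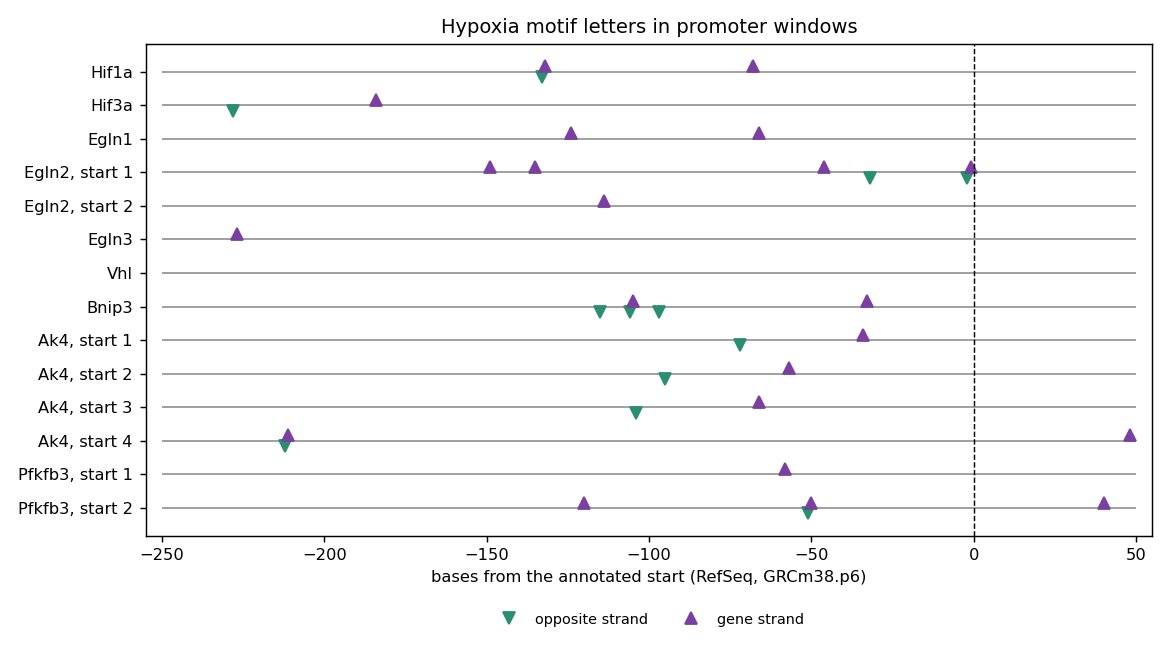
Positions of ACGTG or GCGTG, marked at the middle of each match, in bases from the annotated start (x axis; the dashed line is the start), in the 14 promoter windows of the 9 matched genes (rows), with upward triangles for the gene strand and downward triangles for the opposite strand. Bnip3 shows the 4 matches that begin between 117 and 99 bases before the start, and Vhl shows no match.

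The remaining genes of the pathway were grouped by role, in lists made with earlier results of this comparison known. Over all tested genes 15.0% were called higher and 15.4% lower in the knockout, and nothing is read from the counts of the lists. Of the partners and regulators of HIF alpha, most were not called. Of 13 tested, 0 rose and 2 fell, with a list median of -0.05. Siah1a, a ligase that targets prolyl hydroxylases, fell by 0.75 on the log2 scale, with 121 ± 14.5 normalized reads in knockout and 203 ± 4.25 in wild type (limma adjusted p = 0.00859). The coactivator gene Crebbp fell by 0.47 (limma adjusted p = 0.0389). It lost the call without any single library other than knockout replicate 3, leaving 1 fall in the list when replicate 1 or 2 of either genotype was left out. Arnt, the shared partner of the alpha subunits, had 411 ± 38.7 in knockout and 501 ± 20.4 in wild type and was not called (limma adjusted p = 0.0886), nor was Hif1an, the asparagine hydroxylase that blocks HIF coactivation, with 629 ± 79.4 and 638 ± 75.5 in the same order.

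In glucose uptake, glycolysis and lactate export, 11 of 16 genes rose and 1 fell, with a median log2 change of 0.79. The lactate exporter gene Slc16a3 had 906, 829 and 912 normalized reads in knockout libraries and 49.9, 145 and 98.4 in wild-type libraries (log2 change 3.29, SE 0.34, limma adjusted p = 0.001). Eno1, encoding enolase, had 4100.2 ± 370.4 in knockout and 1633 ± 109 in wild type, though its reads can be split with the near-identical Eno1b. Pgk1, encoding phosphoglycerate kinase, had 14895 ± 925 in knockout and 5671 ± 992 in wild type. The limma adjusted p was 0.000575 for Eno1 and 0.00124 for Pgk1. Pfkl, the liver-type phosphofructokinase gene, was the one that fell, with 2893 ± 130.1 in knockout and 4092 ± 769 in wild type (limma adjusted p = 0.0401), and it was not called without any single library other than wild type replicate 3. Many of these genes have processed pseudogenes with which the counting may have shared reads.

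Of 8 tested mitochondrial hypoxia targets, 2 rose and 0 fell (median 0.12). The mitophagy receptor gene Bnip3l, the paralog of Bnip3, had 1553 ± 85.7 normalized reads in knockout and 937.9 ± 60.9 in wild type, a log2 change of 0.73 (limma adjusted p = 0.00289). Pdk1, the kinase that turns off pyruvate dehydrogenase, had 991 ± 208 in knockout and 529 ± 28.1 in wild type (limma adjusted p = 0.00699). Fam162a, Higd1a and Mxi1, long known as HIF targets, were not called, with log2 changes of 0.07, -0.35 and -0.21.

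Among 18 tested targets of chromatin, collagen, glycogen and stress, 7 rose and 1 fell (median 0.22). The leading rises were Hmox1, the heme oxygenase gene, with 259 ± 23.7 normalized reads in knockout and 65.1 ± 9.04 in wild type, Ero1a, an oxidase of disulfide formation, with 1794 ± 257 and 642 ± 61.9 in the same order, and Ddit4, an inhibitor of mTOR, with 2372 ± 56.7 and 647 ± 169.9. Their limma adjusted p was 0.000562, 0.000707 and 0.000919. All 3 also belong to other stress programmes, and Ddit4 is known to be induced by glucocorticoids as well. The collagen prolyl hydroxylase genes P4ha1 and P4ha2, Hilpda and Ankrd37 were the other rises, and the carbonic anhydrase gene Car12 fell by 1.19 on the log2 scale (limma adjusted p = 0.0111). Kdm3a, Ndrg1 and Bhlhe40, equally well known targets, had log2 changes of -0.09, 0.02 and -0.09 and were not called (limma adjusted p = 0.717, 0.921 and 0.648). Car9, also not called, lay higher in all knockout libraries, with 1519 ± 436 in knockout and 1016 ± 65.6 in wild type. Its log2 change was 0.54 (limma adjusted p = 0.0647).

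Of 6 tested genes of secreted factors, 1 rose and 1 fell (median 0.11). Stc2, encoding a stanniocalcin, had 265 ± 63.8 normalized reads in knockout and 132 ± 18.3 in wild type (limma adjusted p = 0.0115), and Edn1, the endothelin gene, had 509, 453 and 711 in knockout libraries and 2449.7, 2164 and 2201 in wild-type libraries, a log2 change of -2.05 (limma adjusted p = 0.000562). Vegfa, the angiogenic factor most often used as a HIF readout, had 996 ± 129 in knockout and 753 ± 100 in wild type. It lay higher in all knockout libraries but was not called (limma adjusted p = 0.0639). Epo had no read in any library. The number called was 3 without knockout replicate 2 or without wild type replicate 3.

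Of 5 iron genes known to answer to HIF-2 in intestine, 1 rose and 0 fell (median 0.26). Heph, encoding the ferroxidase of iron export, had 2908 ± 351 normalized reads in knockout and 1711 ± 151 in wild type (limma adjusted p = 0.00538), while the importer gene Slc11a2 had 376 ± 71.99 and 411 ± 29.8 in the same order and was not called. Without knockout replicate 1 the count was 3 of 5. Of 6 tested barrier, adenosine and creatine genes, 2 rose and 0 fell (median 0.48). Their products act in turn on extracellular nucleotides: Entpd1 encodes the enzyme that takes ATP and ADP to AMP, and Nt5e the one that takes AMP to adenosine. Nt5e had 1421, 2319.8 and 2135 in knockout libraries and 201, 448 and 576 in wild-type libraries (log2 change 2.36, limma adjusted p = 0.00449). Entpd1, also a gene of myeloid and lymphoid cells, had 149.9, 35.2 and 25.8 in knockout libraries and 0, 4.89 and 10.9 in wild-type libraries (limma adjusted p = 0.0276), highest in the library with the highest myeloid marker sum. The part of those cells was not tested. Entpd1 entered the test through the knockout libraries, since among wild-type libraries only replicate 3 reached the filter value of 10. It lost its call when knockout replicate 1 or either of the first 2 wild-type replicates was left out. Either of those wild-type omissions left 1 call in the list, and omitting knockout replicate 2 gave 3. Adora2b, Cldn1 and Ckm of this list were too low to be tested.

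Of 6 tested paralogs of Ak4 and Pfkfb3, 1 rose and 1 fell (median 0.29). Ak3, the matrix paralog, had 3479 ± 552 in knockout and 2952 ± 172 in wild type and was not called. Pfkfb4, itself known as hypoxia-inducible, fell, with 112, 199 and 219.6 in knockout libraries and 278, 319.8 and 447 in wild-type libraries (log2 change -1.003, limma adjusted p = 0.0328). Its call was lost without any one of the wild-type libraries, and the list then held 1 call. Pfkfb2 had 782 ± 118 in knockout and 654 ± 65.2 in wild type and was not called.

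**Figure D4:**
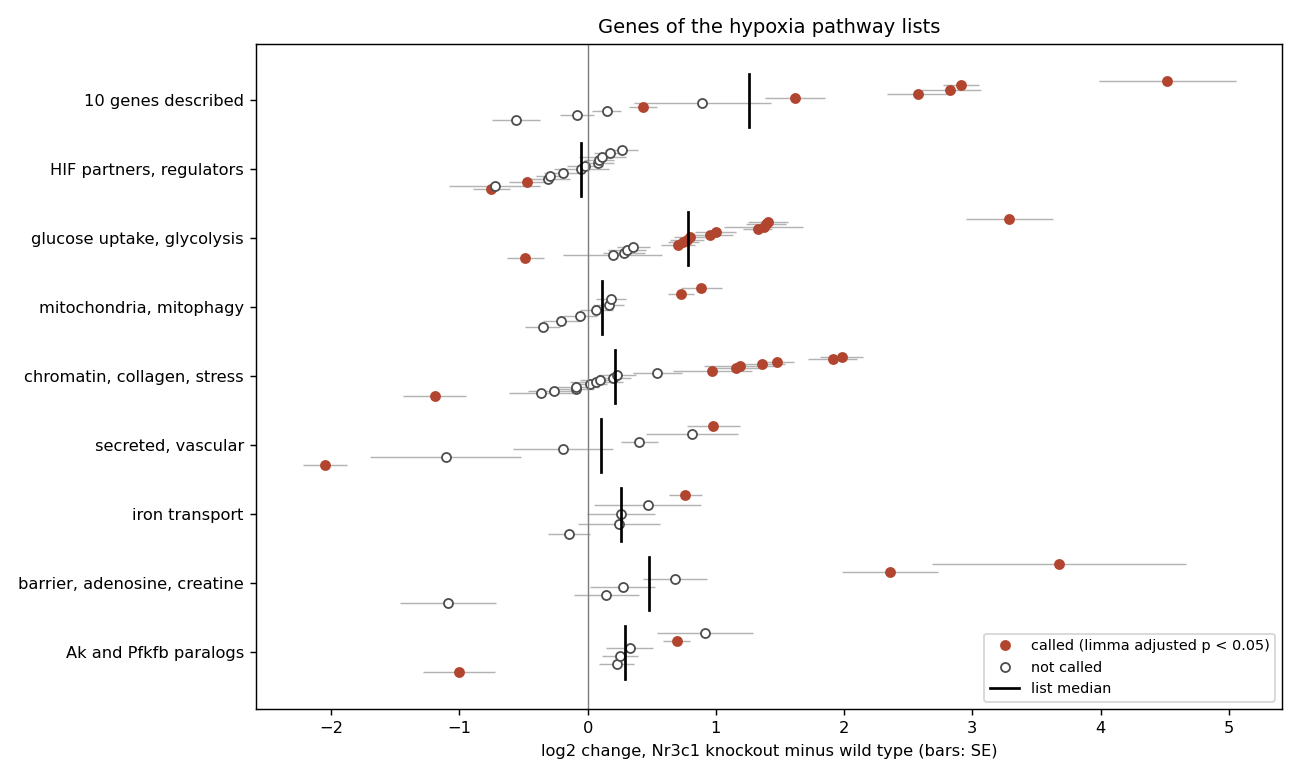
Log2 change, Nr3c1 knockout minus wild type (x axis, with SE bars), of each tested gene in the 10 genes described and 8 further lists (rows), with filled points for genes called in the limma fit, open points for genes not called and a line at each list's median. Glucose uptake and glycolysis holds 11 raised genes of 16, and the partners and regulators of HIF alpha lie around 0 with 2 lowered. Over all tested genes 15.0% were raised and 15.4% lowered.

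Within the groups the 10 genes did not rank the libraries in one way. In the knockout group Hif1a and Pfkfb3 were highest in replicate 1 and lowest in replicate 2, whereas Epas1, Hif3a and Bnip3 were lowest in replicate 1 and highest in replicate 3. In the wild-type group, replicate 3 was the highest for Hif1a, Egln1, Ak4 and Pfkfb3 but not for Egln3 or Bnip3. Among 78 tested genes of the other pathway lists, those most like Egln3 across the 6 libraries were Hmox1 and Ero1a (Pearson r = 0.996 and 0.994 of log2 values). Pfkfb3 was most like Slc2a1, the glucose transporter gene (0.998), Ak4 like Pgk1 (0.996), Bnip3 like P4ha2 (0.993), Hif1a like Slc2a1 (0.974) and Egln1 like Nt5e (0.993). For the genes not called, Hif3a was most like Slc40a1, the iron exporter gene (0.974), Epas1 like Arnt (0.928), Egln2 like Narf (0.985) and Vhl like Plod1 (0.980). These values describe 6 points that fall into 2 groups and share libraries and scaling, so any gene that differs between the groups will resemble another.

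Leaving out 1 library at a time kept the sign of the difference of all 10 genes. The log2 change then ran over 1.46 to 1.84 for Hif1a, 2.80 to 3.03 for Egln3, 2.44 to 2.84 for Bnip3, 2.62 to 3.11 for Ak4 and 4.16 to 5.11 for Pfkfb3, and these 5 genes were called each time. With knockout replicate 1, the library richest in stromal and myeloid markers, and the library labelled wild type replicate 3 both left out, an alternative chosen after seeing the data, the changes were 1.69, 2.87, 2.79, 3.15 and 4.46 in the same order of genes, and Egln1 and Hif3a were called as well.

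**Figure D5:**
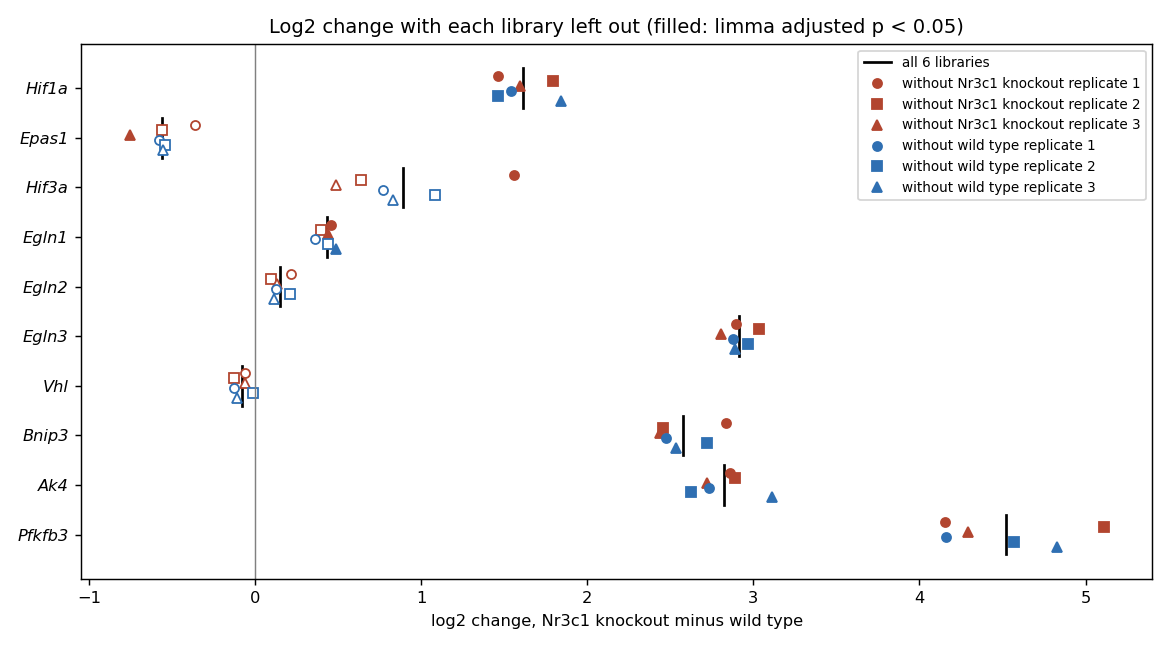
Log2 change, Nr3c1 knockout minus wild type (x axis), of each of the 10 genes (rows) with all 6 libraries (line) and with 1 library left out (red, a knockout library; blue, a wild-type library; filled where called). Hif1a, Egln3, Bnip3, Ak4 and Pfkfb3 are filled throughout, and Hif3a is filled where knockout replicate 1 is left out.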

How the data were processed

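Libraries were non-stranded mRNA libraries, per the labels' protocols. Per the submitters' processing notes, the authors used FastQC, TopHat and DESeq2 with the build mm10, with no version stated. The read counter is not given in the sources used here, nor is its annotation. Deposited values are a normalized signal, which proved to be gene counts divided by 1 size factor per library: 100% came out as whole reads within 0.001. Entrez numbers were matched to symbols and promoter windows through RefSeq tables of GRCm38.p6 (23666 of 23725 matched), and gene positions and exon lengths came from GENCODE M21 (GRCm38).

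Differences, knockout minus wild type, came from limma 3.58.1 (R 4.3.3), with a prior variance that follows the mean, on log2(value + 1). Genes entered where at least 3 libraries held 10 or more, which left 12837. That scale understates the change of low genes, and the filter can let a low gene in through the group where it is higher. Reads per kilobase used the length of the union of annotated exons. The 10 genes and all lists were chosen with earlier results of these data known. In each list the text names up to 3 called genes with the smallest adjusted p, and others named were chosen after their values were seen. Replicate numbers follow accession order and pair nothing. Nothing in the labels says whether samples were pooled from several animals, so p-values measure the spread between these samples. Alternatives were pseudocounts of 0.5 and 5, no filter, a filter at 50, TMM and quantile scaling, count tests on the recovered reads (edgeR 4.0.16, which called 3897 genes, and DESeq2 1.42.0), a covariate of marker level, and leaving out libraries. The values of 1 called paralog are not reported here. The fitting code was tested on simulated data.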

Additional observations from a re-analysis of the deposited data

How the results depend on the processing

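No paired analysis was possible because the replicate numbers follow accession order and the labels pair no animals. The 5 genes Hif1a, Egln3, Bnip3, Ak4 and Pfkfb3 were called under both pseudocounts, both filters, both scalings, edgeR, DESeq2 and every set of libraries tried, and Epas1 was called under quantile normalization (-0.63) and DESeq2 (-0.52). With edgeR 3897 genes were called and with DESeq2 4157, against 3910 with limma.

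A covariate of the mean log2 level of 47 endothelial, stromal, myeloid and lymphocyte markers, which correlated with genotype at 0.863 over the 6 libraries and so cannot be well separated from it, left 45 genes called among all tested and 2 of the 10 genes, Egln3 (2.66) and Bnip3 (3.14). Hif1a, Ak4 and Pfkfb3 stood at 0.71, 2.28 and 2.19, Vhl turned to 0.018, and Nr3c1 stood at -0.78 and lost its call, as 0 genes were called in each of the 8 other lists. The cause was not tested.

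With 1 library left out the calls ranged from 1923 to 3607 over all genes, 5 to 7 for the 10 genes, 1 to 3 for HIF regulators, 2 to 2 for mitochondrial targets, 2 to 3 for secreted factors, 6 to 9 for chromatin and stress targets, 10 to 13 for glycolysis, 1 to 3 for iron, 1 to 3 for barrier and 1 to 2 for paralogs. The change of Nr3c1 ranged from -2.82 to -1.57. Without knockout replicate 1 and wild type replicate 3 together, 3 iron genes and 1 paralog were called. Quantile normalization left 1 HIF regulator, a filter at 50 left 1 barrier gene, and DESeq2 called 4 barrier genes. The causes were not tested, except that the filter at 50 tested fewer genes. Hif3a could not be tested at 50. At this depth wild-type Pfkfb3 rests on 10 to 31 reads per library.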

Other observations

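Several hypoxia-linked genes were too low to be tested and are given as values. Ndufa4l2, a mitochondrial HIF target, had 1.05, 14.5 and 24.8 normalized reads in knockout libraries and 0, 0.978 and 0.911 in wild-type libraries. Plod2, a collagen lysyl hydroxylase gene, had 22.0, 2.07 and 7.64 in knockout and 2.12, 3.91 and 6.37 in wild-type libraries, and Cldn1, a tight junction gene, had 1.05, 2.07 and 3.82 in knockout and 0 in all wild-type libraries.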
